A study of Homo sapiens with 8 samples.

Results

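Transcript levels of 10 genes of the NF-kB system were examined in AB8 cells, a human line derived from podocytes, the filtering epithelial cells of the kidney glomerulus. The genes encode the 5 NF-kB subunits (NFKB1, NFKB2, RELA, RELB and REL), 3 inhibitors of the IkB family (NFKBIA, NFKBIB and NFKBIE), the ubiquitin-editing enzyme TNFAIP3 and the ubiquitin ligase BIRC3. They were chosen by name as subunits and feedback genes, with earlier results of these data known. All 10 were found among 58395 genes of the count table. The induced group was 4 libraries of cells in which pIND21_hCrb2+GFP_S267A, which carries human CRB2 bearing S267A together with GFP, had been switched on with doxycycline for 48 h. The non-induced group was 4 libraries of cells with the same construct and no doxycycline. All were at passage 3 to 8 after modification. The 2 groups therefore differ in doxycycline as well as in the transgene, and effects of the drug, of raised CRB2, of GFP and of S267A cannot be told apart.

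NF-kB proteins are paired transcription factors that cells hold ready in the cytoplasm. IkB proteins bind them there. Signals from receptors such as those for tumour necrosis factor and interleukin 1 activate the IkB kinase, which marks IkB for destruction and lets the dimers enter the nucleus. Several of the genes then switched on encode the brakes of the pathway, above all NFKBIA and TNFAIP3, so that the level of these transcripts follows the activity of the pathway in many cell types. A slower branch, set off by other receptors of the tumour necrosis factor family, works through processing of the NFKB2 protein and through RELB. In podocytes and podocyte lines the pathway is known for driving chemokine and cytokine genes.

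Libraries held 16829454 to 23081616 counted reads, with 23636 to 24545 genes detected. CRB2 had 34245, 97191, 96566 and 85310 reads in induced libraries 1 to 4, against 167, 557, 565 and 364 reads in non-induced libraries 1 to 4, in keeping with the labels. Both libraries numbered 1 stood apart from the rest of their groups. Same-numbered libraries deviated together from their group means, so each result is given both with the number as a block and without it. Of the podocyte markers, NPHS1, a slit diaphragm gene, had 3 reads over the 8 libraries. WT1 stood at 0.506 to 3.94 CPM (reads scaled to a common library size) in induced and at 0.746 to 4.61 CPM in non-induced libraries, and SYNPO at 26.6 to 49.5 CPM in induced and 20.2 to 50.5 CPM in non-induced libraries. NPHS1, which defines mature podocytes, was thus nearly absent. Of the 12 podocyte markers 8 were tested, and with the block 1 was called higher and 0 lower. Of all tested genes 7.51% were called higher and 6.29% lower in that fit. The leukocyte antigen PTPRC had 1 read in all and TYROBP had 0 reads. Of the 12 leukocyte markers 4 were expressed enough to be tested, with a median log2 change of -0.47 without and -0.50 with the block, and 0 passed the threshold in either edgeR fit (2 had an unadjusted p under 0.05 without the block, and DESeq2 without the block called 0). With the block, 2 of the 4 were called lower without pair 1 and 1 without robust estimation. With no filter on low counts 11 of the markers were tested, and the block fit called 1 lower. Without the block 1 of the 4 was called lower once both libraries numbered 1 were left out. CSF1R stood at 1.19 ± 0.27 CPM in induced and 1.86 ± 0.23 CPM in non-induced cells (SD, n = 4 each). LST1 stood at 0.771 ± 0.13 CPM in induced and 1.16 ± 0.29 CPM in non-induced cells. For both, all induced libraries lay below all non-induced ones, which held for 3.22% of all tested genes. CD68 went the other way, at 0.683 ± 0.14 CPM in induced and 0.604 ± 0.22 CPM in non-induced cells, and its groups overlapped. The summed leukocyte list, nearly all of it LCP1 (plastin), ran from 39.2 to 180 CPM in induced and from 77.0 to 223 CPM in non-induced libraries, and its part in the results was not tested. In such bulk RNA, fewer cells with a transcript and less of it per cell cannot be told apart.

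Transcripts of the feedback inhibitor TNFAIP3 and of the subunits NFKB2 and RELB were lower in induced cells and REL was higher, in the fit with the replicate block. NFKBIA and BIRC3 had larger log2 changes than these but did not pass in that fit. Log2 changes, induced over non-induced, were below 0 for 9 of the 10 genes, with a median of -0.25, against a median of 0.0006 and 49.8% below 0 over all 15637 tested genes. With the replicate block, edgeR's quasi-likelihood test called 3 members lower (TNFAIP3, NFKB2 and RELB) and 1 higher (REL) at a false discovery rate of 0.05. Over all tested genes 6.29% were called lower and 7.51% higher. Without the block 0 members passed, and of all tested genes 0.0384% did. Without the block 5 members had an unadjusted p under 0.05 and were lower, which held for 4.26% of all genes, and 1 was higher, which held for 5.12%. DESeq2 without the block called 1 member, NFKBIA. Pair by pair, 7 members were lower in the induced library of all 4 pairs, as were 17.0% of all genes, and REL was higher in all 4, as were 18.6%. All induced libraries lay below all non-induced ones for NFKBIA and RELB, which held for 3.22% of genes, and above them for REL, which held for 3.82%.

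**Figure D1:**
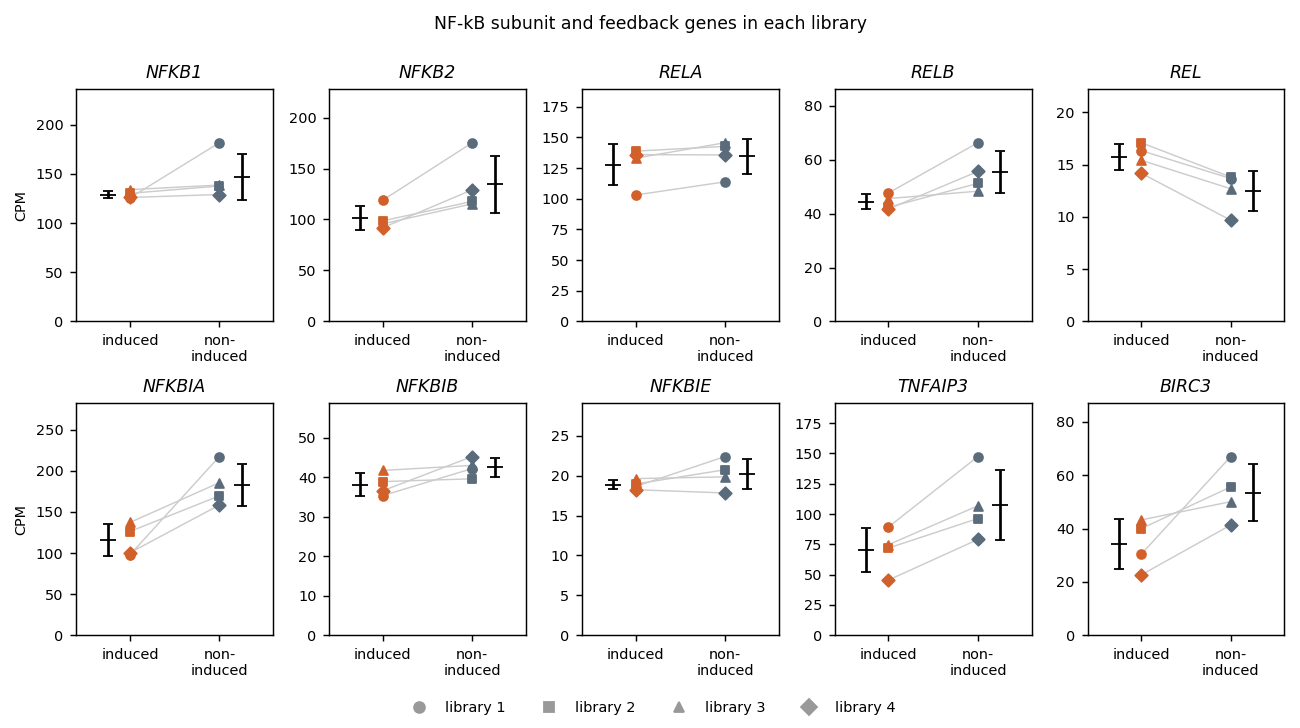
Level of each member in CPM (y axis, from 0) in induced (orange, left) and non-induced (grey, right) libraries. Marker shapes give the library number, grey lines join same-numbered libraries, and bars show the mean and SD of 4 libraries. NFKBIA ran from 97.8 to 137 CPM in induced and from 158 to 217 CPM in non-induced libraries, without overlap, while RELA ran from 103 to 139 CPM in induced and from 114 to 146 CPM in non-induced libraries.

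The promoters of most members carry NF-kB binding letters close to the transcript start. RefSeq windows of GRCh38.p14, which span 250 bases before to 50 bases after a start, matched 8 of the 10 genes by symbol, with 13 starts in all. RELB and NFKBIE had no entry. The motif GGGNNTTTCC was searched on both strands. It lay in at least 1 window of 7 of the 8 genes, against 2.33% of 27305 genes with a window, and in 8 of the 13 windows, against 1.91% of 35116. The wider kappaB consensus, of which GGGNNTTTCC is in part a special case, also lay in 7 of the 8 genes, against 13.25% of all genes. A gene with several starts has more windows in which a match can fall. Matches on both strands can overlap, since the motif read backwards is much like itself.

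The windows of 5 members are shown because these are the genes with the largest changes or, for REL, with a change in the other direction. Letters are 5′ to 3′ on the gene's strand, with matches to the kappaB consensus in capitals.
NFKBIA, chr14:35404700-35404999, minus strand: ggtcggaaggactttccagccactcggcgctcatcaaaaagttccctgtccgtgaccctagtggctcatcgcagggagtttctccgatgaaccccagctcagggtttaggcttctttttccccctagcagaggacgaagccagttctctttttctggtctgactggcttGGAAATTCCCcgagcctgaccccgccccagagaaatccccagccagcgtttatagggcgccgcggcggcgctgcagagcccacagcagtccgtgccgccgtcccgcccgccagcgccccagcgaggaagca
TNFAIP3, chr6:137867009-137867308, plus strand: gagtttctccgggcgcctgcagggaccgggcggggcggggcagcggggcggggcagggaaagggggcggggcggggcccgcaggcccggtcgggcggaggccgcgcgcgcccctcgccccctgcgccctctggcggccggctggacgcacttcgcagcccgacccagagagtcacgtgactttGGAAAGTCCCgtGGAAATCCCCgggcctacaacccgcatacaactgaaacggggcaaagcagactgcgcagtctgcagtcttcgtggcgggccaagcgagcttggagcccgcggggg
BIRC3, chr11:102317234-102317533, plus strand: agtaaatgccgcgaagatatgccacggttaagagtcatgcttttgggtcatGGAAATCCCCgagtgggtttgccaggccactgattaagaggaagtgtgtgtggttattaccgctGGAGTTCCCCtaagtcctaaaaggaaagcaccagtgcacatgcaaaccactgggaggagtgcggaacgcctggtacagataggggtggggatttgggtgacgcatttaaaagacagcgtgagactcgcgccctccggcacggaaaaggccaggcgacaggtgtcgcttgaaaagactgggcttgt
NFKB2, chr10:102395455-102395754, plus strand: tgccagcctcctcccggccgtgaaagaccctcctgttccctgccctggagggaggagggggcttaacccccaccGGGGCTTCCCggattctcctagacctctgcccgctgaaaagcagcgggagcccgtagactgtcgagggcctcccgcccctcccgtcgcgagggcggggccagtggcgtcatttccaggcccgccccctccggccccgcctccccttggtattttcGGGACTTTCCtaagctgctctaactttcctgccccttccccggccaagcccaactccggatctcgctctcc
REL, chr2:60881324-60881623, plus strand: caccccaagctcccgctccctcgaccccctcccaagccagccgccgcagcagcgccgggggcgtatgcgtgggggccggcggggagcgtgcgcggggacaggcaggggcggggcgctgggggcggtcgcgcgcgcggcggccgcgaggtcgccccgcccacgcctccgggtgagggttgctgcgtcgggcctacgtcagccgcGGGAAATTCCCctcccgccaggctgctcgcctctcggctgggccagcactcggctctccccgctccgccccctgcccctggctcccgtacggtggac

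On the strand opposite to the gene, NFKBIA had GGGAATTTCC 81 bases upstream of its start. TNFAIP3 had GGGACTTTCC and GGGGATTTCC side by side, 67 and 55 bases upstream, and BIRC3 had GGGGATTTCC 199 bases upstream. NFKB2 had GGGACTTTCC 21 bases before the start whose window is printed and GGGGCTTTCC 78 bases before another. REL and NFKB1 had GGGAATTTCC 46 and 49 bases upstream, and NFKBIB had it 28 bases upstream of 1 of its 2 starts. Neither window of RELA held a match, which says only that these letters are not in those windows. The motif was thus present both in members that were lower and in REL, which was higher.

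**Figure D2:**
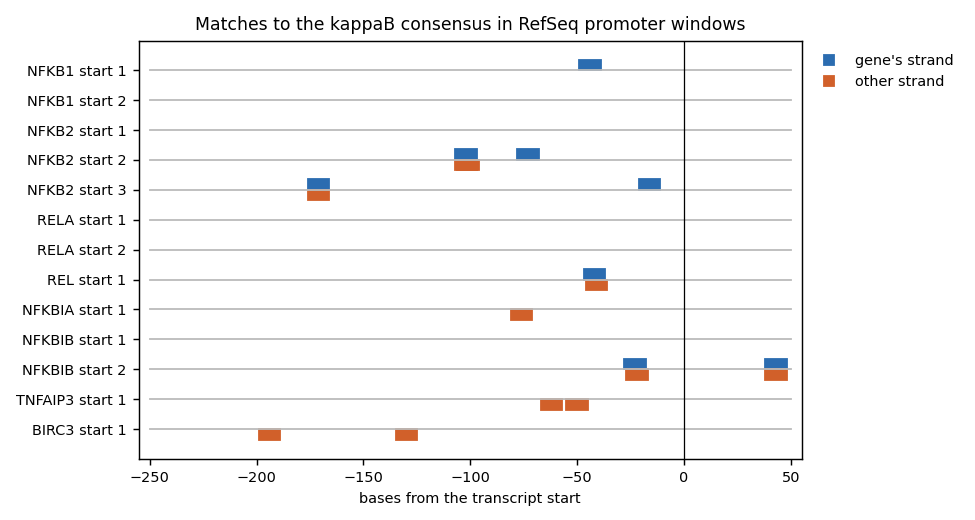
Matches to the kappaB consensus in the 13 RefSeq windows of 8 members (rows), by distance in bases from the transcript start (x axis). Blue boxes lie on the gene's strand and orange boxes on the other. Matches in TNFAIP3 begin 67 and 55 bases upstream, and both RELA rows are empty.

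NFKBIA encodes the inhibitor that is destroyed and made again in each round of signalling. It lies on chromosome 14 (ENSG00000100906, GRCh38, 35401511 to 35404749, minus strand). Its level was 97.8, 126, 137 and 100.3 CPM in induced libraries 1 to 4, against 217, 170, 186 and 158 CPM in non-induced libraries 1 to 4. Every induced library was below every non-induced one, and p was 0.0286 by exact two-sided permutation, the lowest value that 70 labelings permit. That permutation did not use the pairs, and its p was not adjusted over the 10 members. The mean was 115 ± 19.4 CPM in induced and 183 ± 25.6 CPM in non-induced cells (SD, n = 4 each), a log2 change of -0.66 (SE 0.14, edgeR adjusted p = 0.198). The log2 differences were -1.15, -0.43, -0.44 and -0.66 in pairs 1 to 4, so pair 1 stood well beyond the other 3. With the block NFKBIA did not pass (log2 change -0.67, SE 0.16, edgeR adjusted p = 0.0908). Without pair 1 the change was smaller and the spread much narrower (log2 change -0.51, SE 0.05, edgeR adjusted p = 3.53e-05), and DESeq2 called it with and without the block (adjusted p = 0.00318 and 0.0012). In all, 4 of the 11 alternatives to the block fit called NFKBIA.

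The other IkB genes in the set did not pass with or without the block. NFKBIB encodes IkB-beta (chromosome 19, 38899700 to 38908893, plus strand). It stood at 35.4 to 41.8 CPM in induced and at 39.6 to 45.3 CPM in non-induced libraries, and these ranges overlapped. It was lower in 4 of 4 pairs, with a log2 change of -0.15 under the block (95% interval -0.27 to -0.04, edgeR adjusted p = 0.0793). It passed in 2 of the 11 alternatives to that fit, among them without pair 2 (adjusted p = 0.0449), with an edgeR adjusted p of 0.0307 at the lowest. NFKBIE encodes IkB-epsilon (chromosome 6, 44258166 to 44265788, minus strand), which ran from 18.2 to 19.6 CPM in induced and from 17.8 to 22.4 CPM in non-induced libraries. The change was -0.10 under the block (95% interval -0.24 to 0.05, adjusted p = 0.387), lower in 3 of 4 pairs. NFKBIB overlaps SIRT2 on the opposite strand over 40 exon bases, and whether counting used strand is not given in the sources used here.

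NFKBIA was also set against its partners within each library. NFKBIA over NFKBIB, as a ratio of levels per kilobase, was 2.68 to 3.22 in induced and 3.43 to 5.04 in non-induced libraries. NFKBIA over RELA was 1.70 to 2.37 in induced and 2.69 to 4.39 in non-induced libraries. NFKBIA over NFKB1 was 2.05 to 2.70 in induced and 3.16 to 3.53 in non-induced libraries. None of these 3 ratios overlapped between the groups. Each gave p = 0.0286 in an exact two-sided permutation test, which became 0.0763 after Benjamini-Hochberg adjustment over the 8 ratios computed. The lowest p that 70 labelings permit is 0.0286. With only 3 of the 8 ratios at that p, none could pass, so the adjusted value decides nothing about them. NFKBIA over TNFAIP3 did not separate the groups, at 2.33 to 4.69 in induced and 3.14 to 4.27 in non-induced libraries (exact permutation p = 0.857, adjusted 0.857).

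TNFAIP3 encodes a ubiquitin-editing enzyme that shuts down signalling between receptors and the IkB kinase (ENSG00000118503, chromosome 6, 137867188 to 137883312, plus strand). Its level was 89.3, 71.9, 74.7 and 45.5 CPM in induced libraries 1 to 4, against 147, 96.3, 107 and 79.0 CPM in non-induced libraries 1 to 4. The groups overlapped, since induced library 1 was above non-induced library 4, but the induced library was the lower one in each pair, by 0.72, 0.42, 0.51 and 0.79 on the log2 scale. The fall was called with the block (log2 change -0.61, SE 0.06, 95% interval -0.73 to -0.48, edgeR adjusted p = 7.78e-05) and under all 11 alternatives to that fit, with an adjusted p of at most 4.89e-04. Without the block the change had the same size (-0.61, SE 0.23) and did not pass (edgeR adjusted p = 0.46). An antisense gene shares 95 exon bases with TNFAIP3 and had 138 reads, against 14480 reads for TNFAIP3.

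BIRC3 encodes a ubiquitin ligase of the tumour necrosis factor receptor complex (ENSG00000023445, chromosome 11, 102317450 to 102339403, plus strand). Its level was 30.4, 40.0, 43.2 and 22.6 CPM in induced libraries 1 to 4, against 67.0, 55.6, 50.1 and 41.3 CPM in non-induced libraries 1 to 4. Only induced library 3 was above a non-induced library, number 4. The change under the block was -0.66 (SE 0.19, 95% interval -1.21 to -0.10), about the size seen for NFKBIA and TNFAIP3, but it did not pass (edgeR adjusted p = 0.13). The pairs ranged widely, from -0.21 in pair 3 to -1.14 in pair 1. BIRC3 passed without pair 3 (adjusted p = 0.041), without robust estimation (0.0044) and with DESeq2 under the block (0.0104).

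**Figure D3:**
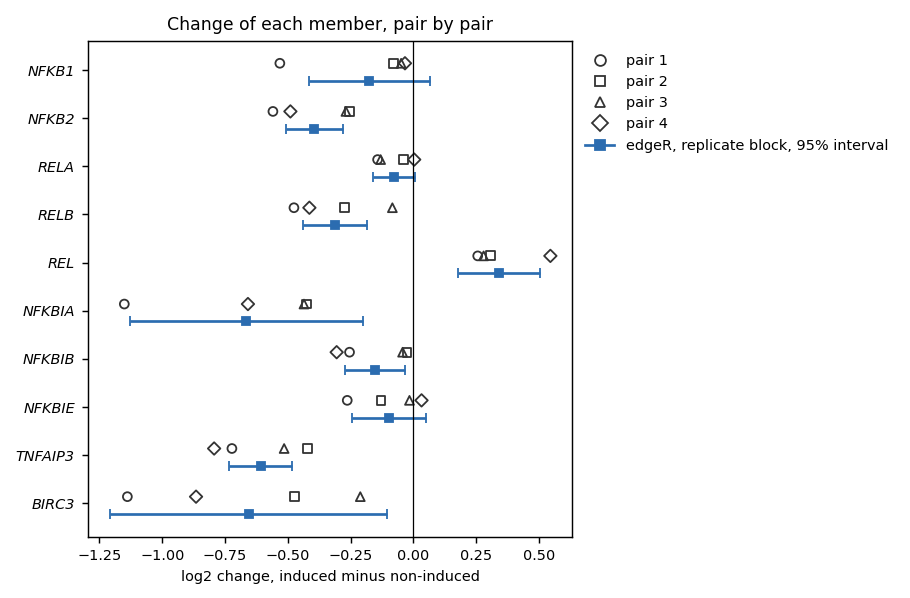
Log2 change of each member (x axis), induced minus non-induced, in each same-numbered pair (open markers) and as estimated by edgeR with the replicate block (blue squares with 95% intervals). TNFAIP3 lay between -0.42 and -0.79 in all 4 pairs, REL between 0.26 and 0.54, and NFKBIA reached -1.15 in pair 1.

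Among the subunits, NFKB2 and RELB, those of the slower branch, were called lower with the block. NFKB2 encodes a precursor whose processed form pairs with RELB (ENSG00000077150, chromosome 10, 102394110 to 102402529, plus strand). It stood at 119, 98.7, 95.7 and 91.9 CPM in induced libraries 1 to 4, against 175, 118, 115 and 129 CPM in non-induced libraries 1 to 4. Only induced library 1 reached the non-induced range, and every induced library was below its own partner. NFKB2 fell with the block (log2 change -0.39, SE 0.05, edgeR adjusted p = 6.13e-04), under all 11 alternatives to that fit, and also without the block once both libraries numbered 1 were left out (-0.34, adjusted p = 0.00601). With all 8 libraries and no block the adjusted p was 0.408.

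RELB, the partner of processed NFKB2, lies on chromosome 19 (ENSG00000104856, 45001430 to 45038198, plus strand). It was at 47.7, 42.4, 45.6 and 41.8 CPM in induced libraries 1 to 4, against 66.4, 51.3, 48.4 and 55.7 CPM in non-induced libraries 1 to 4. The groups did not overlap, although the highest induced and the lowest non-induced library were close. The exact two-sided permutation p, unadjusted and without use of the pairs, was 0.0286, the smallest possible. The fall passed with the block (log2 change -0.31, SE 0.06, edgeR adjusted p = 0.00451) and under its 11 alternatives (adjusted p up to 0.0419), but not without the block (adjusted p = 0.349). The ratio of NFKB2 to RELB per kilobase was 1.42 to 1.69 in induced and 1.55 to 1.79 in non-induced libraries, and no difference in it was shown (exact permutation p = 0.343, adjusted 0.392). NFKB2 over NFKB1 was lower in 4 of 4 pairs (exact permutation p = 0.114, adjusted 0.228). RELB over RELA was lower in 3 of 4 pairs (exact permutation p = 0.343, adjusted 0.392). These permutations did not use the pairs, so they cannot decide whether NFKB2 and RELB fell more than NFKB1 and RELA. Under the block, the intervals of the log2 change of NFKB2 (-0.51 to -0.28) and RELB (-0.44 to -0.18) lay below that of RELA (-0.16 to 0.01). The interval of NFKB1 (-0.42 to 0.07) overlapped those of NFKB2 and RELB. Whether the changes of these genes differ was not tested with the pairs.

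RELA and NFKB1, which make up the most common dimer of the fast branch, did not pass in either fit. RELA encodes the subunit with the main activating domain (chromosome 11, 65653596 to 65663094, minus strand). It stood at 103, 139, 133 and 136 CPM in induced libraries 1 to 4, against 114, 143, 146 and 136 CPM in non-induced libraries 1 to 4. The libraries numbered 1 were the lowest of both groups, and the groups overlapped. The change under the block was -0.08 (95% interval -0.16 to 0.01, edgeR adjusted p = 0.204). NFKB1 (chromosome 4, 102501329 to 102617302, plus strand) was at 126, 130, 134 and 126 CPM in induced libraries 1 to 4, against 182, 138, 139 and 129 CPM in non-induced libraries 1 to 4. Its log2 difference was -0.53 in pair 1 and -0.08 to -0.03 in the other 3 pairs, and it did not pass with the block (-0.18, 95% interval -0.42 to 0.07, adjusted p = 0.308). Without pair 1 the estimate was -0.06 (adjusted p = 0.375).

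REL, the c-Rel subunit known mainly from lymphoid cells, was the member that moved upwards (ENSG00000162924, chromosome 2, 60881521 to 60931610, plus strand). Its level was 16.4, 17.1, 15.4 and 14.2 CPM in induced libraries 1 to 4, against 13.7, 13.8, 12.7 and 9.69 CPM in non-induced libraries 1 to 4. All induced libraries were above all non-induced ones, and the rise within pairs was 0.26 to 0.54. The exact two-sided permutation p, unadjusted and without use of the pairs, was 0.0286, the smallest possible. REL rose with the block (log2 change 0.34, SE 0.08, edgeR adjusted p = 0.00916), and not without it (adjusted p = 0.427). The call was lost without pair 4 (adjusted p = 0.0622) and with DESeq2 under the block (0.0625). Of the 13170 exon bases of REL in GENCODE release 29, 5702 are shared with the same-strand gene AC010733.2, which had 0 reads. How reads in shared bases were counted is not given in the sources used here.

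Levels between genes were compared as CPM per kilobase of exon (RPKM). NFKBIA was the most abundant member, at 48.6 ± 8.17 RPKM in induced and 77.0 ± 10.8 RPKM in non-induced cells (SD, n = 4 each), above all other members in every library. NFKB2 (22.6 ± 2.69 and 29.97 ± 6.23 RPKM in induced and non-induced cells), RELA (23.4 ± 3.04 and 24.6 ± 2.64), NFKB1 (20.6 ± 0.63 and 23.4 ± 3.78), TNFAIP3 (13.9 ± 3.61 and 21.3 ± 5.75), NFKBIB (16.4 ± 1.21 and 18.3 ± 1.00) and RELB (14.6 ± 0.92 and 18.3 ± 2.60) followed. In non-induced libraries neighbours in this middle group overlapped in their ranges, so neighbours have no firm order. NFKB2 (25.7 RPKM or more) still lay above RELB (21.9 RPKM or less) and NFKBIB there. RELA and NFKB1 (20.6 RPKM or more in each) lay above NFKBIB (19.5 RPKM or less). In induced libraries NFKB2, RELA and NFKB1 (18.9 RPKM or more in each) all lay above TNFAIP3, NFKBIB and RELB (17.97 RPKM or less in each), with overlaps among the first 3 and among the last 3. NFKBIE (7.31 ± 0.23 and 7.82 ± 0.74 RPKM) lay below all of them in both groups. BIRC3 (4.53 ± 1.25 and 7.12 ± 1.43 RPKM) was below NFKBIE in every induced library, whereas the ranges of these 2 genes overlapped in non-induced libraries. REL was lowest, at 1.20 ± 0.10 and 0.947 ± 0.15 RPKM, and over the 7468 exon bases not shared with AC010733.2 its means were 2.11 RPKM in induced and 1.67 RPKM in non-induced cells, still below every other member.

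**Figure D4:**
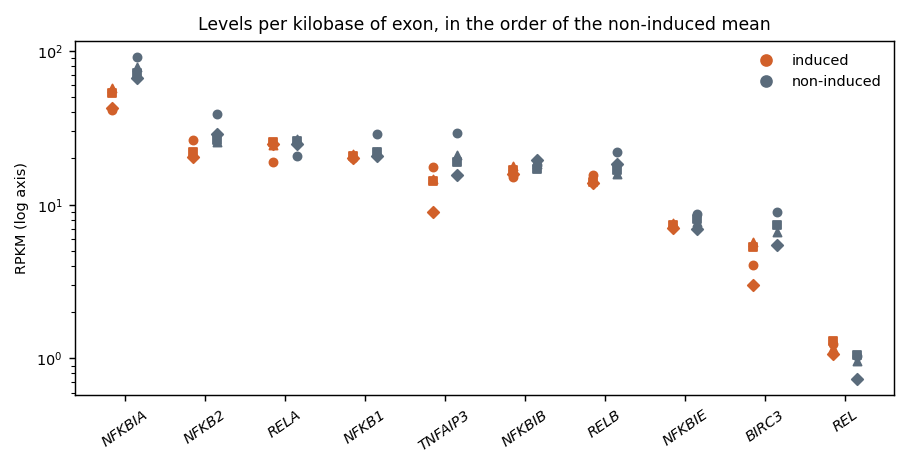
Level of each member in RPKM (log axis) in induced (orange) and non-induced (grey) libraries, ordered by the non-induced mean. Marker shapes stand for library numbers (circle 1, square 2, triangle 3, diamond 4). NFKBIA stood above 41 RPKM in all 8 libraries and REL below 1.3 RPKM.

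The libraries numbered 1 differed from the rest in these genes. In induced library 1, TNFAIP3 was at 139%, NFKB2 at 125%, NFKBIA at 80.7%, BIRC3 at 86.1% and RELA at 75.8% of the mean of induced libraries 2 to 4. In non-induced library 1, TNFAIP3 was at 157%, NFKB2 at 145%, BIRC3 at 137%, NFKB1 at 134%, RELB at 128% and NFKBIA at 127% of the mean of non-induced libraries 2 to 4, while RELA was at 80.5%. NFKBIA and BIRC3 were thus above the other libraries of the group in non-induced library 1 and below them, on average, in induced library 1, which makes pair 1 the pair with their largest difference. Summed over the 10 members, levels were 683, 723, 740 and 633 CPM in induced libraries 1 to 4, against 1047, 845, 866 and 801 CPM in non-induced libraries 1 to 4.

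Genes upstream of the subunits mostly did not pass. The lists used from here on were chosen with earlier results of these data known. With the block, 6.29% of all tested genes were called lower and 7.51% higher. Without it, 4.26% were lower and 5.12% higher at an unadjusted p under 0.05. In alternative block fits the lower calls were 913 of 15769 without pair 1 and 851 of 15624 without pair 2. They were 548 of 15640 without pair 3 and 482 of 15841 without pair 4. DESeq2 called 537 of 15637 lower with the block and 132 of 15637 without it. With the block, 950 of 15637 were lower without robust estimation and 1351 of 31603 without the filter on low counts. Of 13 kinases of the IkB kinase complex and above it, 1 fell with the block and 0 rose, with a median log2 change of -0.02. The count of kinases that fell was near the share of all genes. The gene that fell was IKBKB, the catalytic IkB kinase subunit of the fast branch (39.8 CPM in induced and 47.0 CPM in non-induced cells, log2 change -0.24, edgeR adjusted p = 0.00339). Of 21 adaptors and ubiquitin ligases, 4 fell and 1 rose, with a median of -0.08. TRAF1, a receptor adaptor, fell (log2 change -0.62, adjusted p = 6.33e-05), as did the interleukin receptor kinase IRAK2 (-0.73, 0.0186), the BIRC3 neighbour and relative BIRC2 (-0.25, 0.00728) and, chosen after its values were seen, the ubiquitin-conjugating enzyme UBE2N (-0.13, 0.024). XIAP, a further inhibitor of apoptosis protein, rose (0.16, 0.0164), and 1 of 21 is not above the share of all genes called higher. Without the block edgeR called 0 genes of either list (2 and 1 at an unadjusted p under 0.05), and DESeq2 called 1 of each. Of the adaptors, 1 fell and 0 rose without pair 4, 2 fell and 1 rose without pair 2, and XIAP was lost also without pair 3 and with DESeq2 under the block.

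Of 22 other IkB proteins and negative regulators, 1 fell and 1 rose with the block, with a median of -0.09. These counts were not above the shares of all tested genes, 6.29% lower and 7.51% higher. BCL3, a nuclear IkB protein, fell (15.1 CPM in induced and 21.5 CPM in non-induced cells, log2 change -0.50, edgeR adjusted p = 0.00229). OTULIN, which removes linear ubiquitin chains, rose (46.7 CPM in induced and 38.9 CPM in non-induced cells, 0.27, adjusted p = 0.00223). As with NFKBIA, leaving out pair 1 changed the count of this list, to 7 lower and 1 higher. It was also 7 lower without robust estimation, 5 lower with DESeq2 and 3 lower without the filter on low counts, each with 1 higher. Of 18 tested receptors 5 fell and 0 rose, with a median of -0.14. They were TNFRSF11B, the decoy receptor osteoprotegerin (-0.92, adjusted p = 0.0107), the interleukin receptor chains IL1R1 (-0.34, 0.0242) and, chosen after its values were seen, IL1RAP (-0.36, 0.0343), and the death receptors TNFRSF10B (-0.16, 0.0079) and TNFRSF1A (-0.15, 0.0301). The count was 1 without pair 4, and 3 without pair 1, without pair 3 or with DESeq2 under the block. Without the block edgeR called 0 genes of both lists (6 and 4 at an unadjusted p under 0.05) and DESeq2 called 3 and 1.

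Ligands and target genes had lower medians than the members. Over all tested genes the block called 6.29% lower and 7.51% higher. Of 14 ligands 7 were expressed enough to be tested, with a median log2 change of -1.02 under the block, and 2 fell. IL1A, an interleukin that itself activates the pathway, stood at 3.36 CPM in induced and 7.49 CPM in non-induced cells (-1.17, adjusted p = 6.60e-05), and IL1B at 0.959 CPM in induced and 2.53 CPM in non-induced cells (-1.34, 0.0127). Of 32 tested target genes 13 fell and 2 rose, with a median of -0.77. The falls with the smallest p were the heparan sulphate proteoglycan SDC4 (700 CPM in induced and 914 CPM in non-induced cells, -0.39, adjusted p = 1.79e-05), the AP-1 factor JUNB (-0.42, 6.90e-05), the cytokine LIF (-0.33, 1.39e-04) and the survival gene BCL2A1 (-1.39, 0.00146). The genes that rose, chosen after their values were seen, were GADD45B (0.18, adjusted p = 0.0265) and BCL2L1 (0.13, 0.0274). Both rises were lost without pair 1, without pair 4 and with DESeq2 under the block, and without pair 3 the number called higher was 1. With pair 1 left out 16 targets fell, with pair 4 left out 8 did, DESeq2 under the block called 19 lower, and edgeR without robust estimation called 24 lower. In the same order, those fits called 913 of 15769, 482 of 15841, 537 of 15637 and 950 of 15637 tested genes lower. Of the ligands 5 fell without pair 1 or without robust estimation, 3 with DESeq2 and 1 without pair 3 or pair 4. Without the block edgeR called 0 genes of both lists (4 and 21 at an unadjusted p under 0.05). DESeq2 without the block called 2 and 15 lower, where it called 132 of 15637 tested genes lower.

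**Figure D5:**
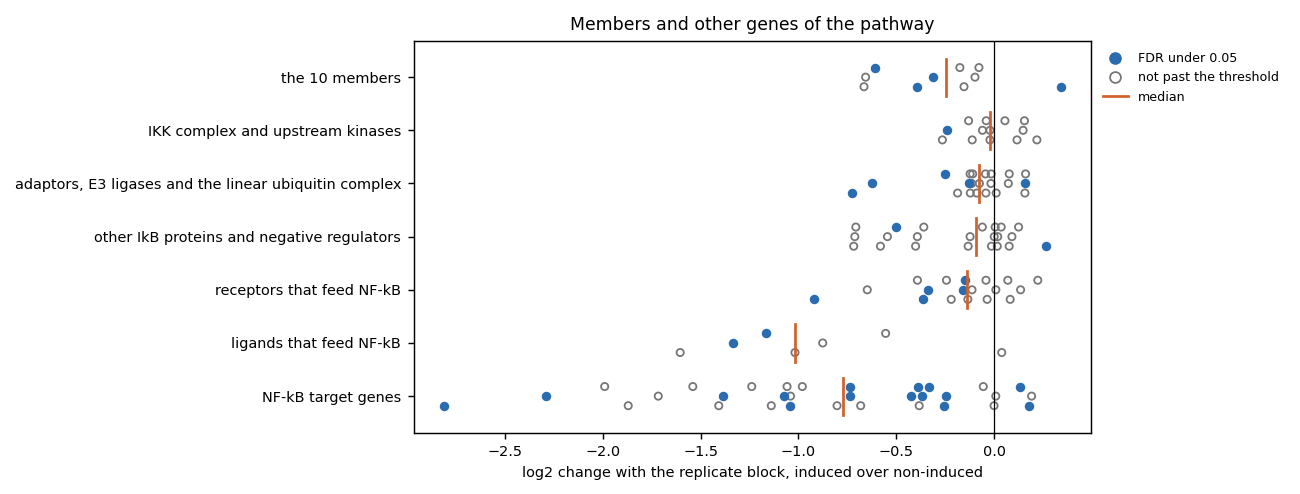
Log2 change with the replicate block (x axis), induced over non-induced, of the 10 members and of the tested genes of 6 other lists of the pathway (rows). Filled points passed a false discovery rate of 0.05 over all tested genes and orange bars are medians. The medians were -0.24 for the members, -0.02 for the kinases and -0.77 for the target genes.

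The genes most like NFKBIA, TNFAIP3 and BIRC3 over the 8 libraries were sought among 9859 other genes of at least 10 CPM. The measure was the root mean square difference of log2 CPM, each gene centred on its own mean. For NFKBIA they were SLC25A37, a mitochondrial iron importer, at 0.065, IL23A, a cytokine subunit, at 0.099, and CSF1, the macrophage growth factor, at 0.10, where the median gene differed by 0.41. For TNFAIP3 they included PHLDA1 at 0.14 and the transporter gene SLCO4A1 at 0.15 (median 0.48). For BIRC3 they were CSF1 at 0.19, the hyaluronan synthase HAS3 at 0.20 and MFSD2B at 0.21 (median 0.48). These genes were picked for likeness over the same 8 libraries, so changes like those of the members follow from the choice. CSF1 was on the lists of both NFKBIA and BIRC3, and it did not pass with the block (log2 change -0.51, edgeR adjusted p = 0.166). SLC25A37 tracked NFKBIA to within 0.065 against a spread of NFKBIA itself of 0.38 on the same scale, and stood at 102 CPM in induced and 157 CPM in non-induced cells (-0.62, adjusted p = 0.0408).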

How the data were processed

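RNA from AB8 cells was sequenced from directional libraries as single reads of 75 bases, per the labels. The submitters' processing notes name HTSeq 0.11.1, HISAT2 2.1.0, Trimmomatic 0.38, DESeq2 1.24.0 and bcl2fastq with the builds hg38 and GRCh38, in no order. The authors deposited raw read counts per Ensembl gene, and a normalized signal that is those counts divided by 1 factor per library (0 values off by more than 0.001). Only the counts were tested. Of 58395 genes, 58275 matched GENCODE release 29, which gave names, positions and exon lengths.

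The filter filterByExpr (minimum count 10) retained 15637 genes, all 10 members among them. They were scaled by TMM and tested in edgeR 4.0.16 (R 4.3.3) by the robust quasi-likelihood test, two-sided, with Benjamini-Hochberg adjustment over all tested genes (FDR 0.05). The fit of first choice has no replicate block. The numbers are shared between groups, although their meaning is not labelled. Same-numbered libraries' deviations from group means correlated at 0.648 to 0.911 across 11502 genes (mean log2 CPM above 2), all over 0.1. Differently numbered libraries among numbers 2 to 4 also correlated, at 0.35 to 0.667, and each library correlated best with its own number. The numbers were therefore taken as pairs from the data, not from the labels, and the block fit is given. Separate cultures are not stated either, and p-values then reflect only the spread among these libraries, which may be technical. Totals for CPM were TMM-scaled, with a prior count of 2 on the log2 scale. RPKM divide CPM by the union of exons.

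Alternatives were DESeq2 1.42.0, 3 scalings, 2 filters, no robust estimation and libraries or pairs left out. Both edgeR fits, with and without the block, were tested on simulated data. Named genes were all members, up to 4 called genes per list with the smallest p under the block (up to 2 where none was called), and the 3 genes most like NFKBIA, TNFAIP3 and BIRC3. A gene that this rule names and a podocyte marker are not reported here. The members and lists were chosen with earlier results of these data known. All 157 list entries were found. SOD2 matched 2 IDs, of which the one with reads was used.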

Additional observations from a re-analysis of the deposited data

Results flagged for a closer look

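A library far from the others of its group was looked for in 54 groups of 4 libraries, those of the members and of the other named genes, and 8 groups had one. Chance alone gives about 1 in 20 for independent groups. These groups share the same 8 libraries, so their share cannot be set against that rate. In 7 of the 8 it was a library numbered 1. RELA stood at 103 CPM in induced library 1, against 133 to 139 CPM in the other induced libraries. TRAF1 stood at 57.2 CPM in induced library 1 (10.3 to 13.1 CPM in the others) and at 97.99 CPM in non-induced library 1 (16.4 to 18.9 CPM in the others). JUNB stood at 60.7 CPM in induced library 1 (28.4 to 28.8 CPM in the others) and at 78.0 CPM in non-induced library 1 (37.8 to 40.1 CPM in the others). IRAK2 was at 70.3 CPM in non-induced library 1, against 42.2 to 46.9 CPM in the others, and IL1R1 at 5.11 CPM in induced library 1, against 10.7 to 11.6 CPM. SDC4 was at 1022 CPM in non-induced library 3, against 869 to 892 CPM in the others.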

How the results depend on the processing

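Without the block 0 members passed in edgeR with all libraries. The count was 4 with the replicate block, 1 with DESeq2 (NFKBIA), 1 without both libraries numbered 1 (NFKB2), and 0 with each of the 8 libraries left out in turn and under the other settings. The log2 change of RELA ranged from -0.146 to 0.0115 with 1 library left out and changed sign only without induced library 1 (0.0115, adjusted p = 0.977). With the block the count of 4 was 3 to 5 with pairs left out, 5 with DESeq2, and 4 to 6 under the other settings. NFKB2, RELB and TNFAIP3 were among the calls of every block fit, while REL was lost with DESeq2 and without pair 4. NFKB1 passed only with no filter on low counts (adjusted p = 0.00256). The cause of these differences was not tested. Of all 15637 tested genes the block called 2159, and DESeq2 called 1107 with and 240 without it. With the block edgeR called 1721 of 15769 without pair 1 and 1969 of 15624 without pair 2. It called 1254 of 15640 without pair 3 and 909 of 15841 without pair 4. The block fit called 2711 of 31603 with no filter and 1996 of 9852 with a filter of 10 CPM in 4 libraries. Under the other settings it called 2067 to 2208 of 15637. Without the block, edgeR called 543 of 15769 once both libraries numbered 1 were left out. No scaling moved the median of all tested genes by more than 0.1. For RELA the block interval still allowed -0.16 to 0.01.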

Other observations

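Some target genes outside the naming rule, chosen after their values were seen, had larger log2 changes than any member. IER3, an immediate early gene, averaged 111 CPM in induced and 186 CPM in non-induced cells (log2 change -0.74), with an edgeR adjusted p of 0.0624 without and 0.0075 with the block. The chemokine CCL20 averaged 2.42 CPM in induced and 11.9 CPM in non-induced cells (-2.29, adjusted p = 0.0878 without and 0.0188 with the block). The urokinase gene PLAU averaged 136 CPM in induced and 278 CPM in non-induced cells (-1.04, adjusted p = 0.102 without and 0.0158 with the block). All 3 were lower in 4 of 4 pairs. The chemokine CCL5, also chosen after its values were seen, averaged 27.7 ± 13.4 CPM in induced and 27.1 ± 10.2 CPM in non-induced cells (SD, n = 4 each), with a log2 change of -0.00023 under the block (95% interval -0.21 to 0.21, edgeR adjusted p = 0.9996).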
